A study of Mus musculus with 18 samples.

Results

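Mouse CD8+ T cells that lacked surface 41BB when they were sorted were compared after 72 h and after 24 h of activation in culture, across the autosomal genes that passed a filter on low counts. The comparison held 12686 autosomal genes of the 13150 genes tested and of 55487 genes in the count table. The rule of the comparison fixed the libraries and the chromosomes and used no measured value. Each group held 3 libraries. The 72 h group was 41BB- CD8+ T cells kept for 72 h with Dynabeads carrying antibodies to CD3 and CD28, and the 24 h group was the same kind of cell kept with the beads for 24 h.

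The cells came from spleens and lymph nodes of wild type C57BL/6J mice and carried no engineered allele. Sorting was on CD8 and on 41BB (CD137, gene Tnfrsf9), which costimulates T cells and belongs to the TNF receptor superfamily. Both groups therefore share the sort, the beads and a medium with 20% fetal bovine serum, and differ by the time of harvest. The series of 18 bulk RNA-seq libraries also holds 41BB- cells at 0 h and 41BB+ cells, named Tpam in the labels, at 0, 24 and 72 h. The labels call the replicates biological triplicates and do not say whether a replicate was 1 animal or a pool. They do not describe a second sort at harvest, so 41BB- names the state of the cells at the start of culture.

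As background, engagement of CD3 with CD28 sends a naive CD8+ T cell out of rest. Within hours calcium, MAPK and NF-kB signals induce a wave of immediate early transcription factors, cytokines and chemokines, while MYC drives a burst of ribosome building, amino acid uptake and chaperone synthesis ahead of division. Dividing cells later acquire granzymes, effector transcription factors and a changed set of adhesion and chemokine receptors, and as the stimulus wanes some genes of the resting state return.

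Total counts per library lay between 3133910 and 4239795 in the 6 libraries, and 16503 to 20606 genes had at least 1 count. In the shallowest of the libraries 3 counts correspond to 0.957 counts per 1000000 counts (CPM). Levels below are CPM on effective library sizes, that is after the trimmed mean of M-values (TMM) scaling, in the order of replicates 1, 2 and 3. CPM takes no account of transcript length, so levels are compared within a gene, not between genes. Transcripts of Tnfrsf9, the sorted receptor, were at 45.4, 53.8 and 63.7 CPM at 72 h, against 162.1, 171.9 and 180.2 CPM at 24 h, and at a mean of 6.62 CPM at 0 h. The libraries of cells sorted as 41BB- thus held transcripts of the receptor at both culture times. Cd8b1, a chain of the CD8 coreceptor, was at 723.3, 712.8 and 484.4 CPM at 72 h, against 302.0, 306.7 and 290.5 CPM at 24 h. Cd8a, the other chain, was at 451.9, 388.9 and 335.5 CPM, against 483.4, 474.1 and 461.7 CPM, and did not pass the test (log2 fold change -0.27, adjusted p = 0.0678), although it was called lower in 6 alternatives. These were without replicate 1 of 72 h (-0.44), without replicate 3 of 24 h (-0.35), the fit of the 6 libraries alone (-0.30), no filter on low counts (-0.38), abundant gene classes left out (-0.34) and autosomal genes alone (-0.33). Cd4 had 6 counts in all at 72 h and 6 at 24 h.

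Some library measures moved with time. Mitochondrial genes took 9.14 ± 0.373% of the counts at 72 h and 6.54 ± 0.334% at 24 h (SD, n = 3 each), the 10 most abundant genes took 22.2 ± 0.41% and 16.5 ± 0.496%, and a TMM factor of 0.964 ± 0.00394 stood against 1.07 ± 0.00984. None of these measures overlapped between the times, and each had a 2-sided exact permutation p of 0.1, the smallest that 3 against 3 libraries allow. Summed markers of other cells were low beside the summed CD8 T cell markers (2741.2 ± 237.1 CPM at 72 h and 1853.2 ± 20.8 CPM at 24 h). The B cell sum was 452.6 to 531.1 CPM at 72 h, against 124.8 to 159.1 CPM at 24 h, and rested on Ighm (510.9, 495.1 and 433.0 CPM, against 132.6, 148.7 and 116.4 CPM), with 3 of its 10 markers called higher, 0 lower, 3 not called and 4 not tested. For CD4 T cells the sum was 49.2 to 56.3 CPM, against 7.37 to 11.9 CPM, and rested on Zbtb7b (36.7, 47.8 and 44.1 CPM, against 0.904, 1.99 and 0.263 CPM), while Cd4 itself was near 0. The myeloid sum was 1.63 to 2.94 CPM, against 1.51 to 13.9 CPM, and the NK cell sum 67.1 to 89.8 CPM, against 62.4 to 76.6 CPM. The part of these cells and of the library measures in the results below was not tested, and in bulk RNA fewer cells of a type and less RNA per cell cannot be told apart.

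Between 24 and 72 h a large share of the tested autosomal genes changed, in both directions. Of 12686 genes, 2889 were called higher at 72 h (22.8%) and 2325 lower (18.3%), in all 5214 (41.1%), where a call is a Benjamini-Hochberg adjusted p under 0.05 over all tested genes in edgeR's quasi-likelihood test. The remaining 7472 genes did not pass. Called changes of at least 2-fold numbered 1679 higher and 1015 lower, and changes of at least 4-fold 567 higher and 247 lower. The median log2 fold change over all genes was 0.04, with a 10th percentile of -1.08 and a 90th percentile of 1.42. The 3 libraries of 72 h lay all above or all below the 3 of 24 h in 6500 genes (51.2%). Below, rose and fell are used of called genes, and a signed value in parentheses after CPM values is the fitted log2 fold change of 72 h over 24 h, with its standard error after ± where given. The counts and medians of gene groups below are set against these shares, and no test of a group as a whole was made.

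**Figure D1:**
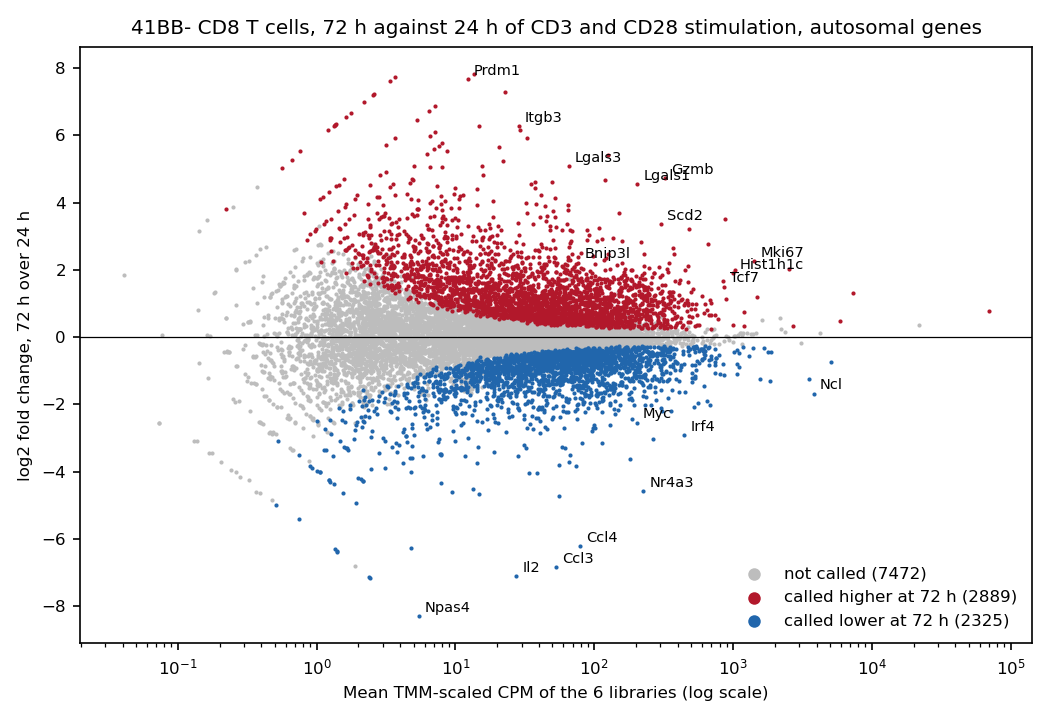
Log2 fold change of 72 h against 24 h (vertical axis) by mean CPM on a log scale (horizontal axis) for 12686 autosomal genes in 41BB- cells. Each point is a gene, coloured by its call, and the 2889 genes called higher and 2325 called lower spread over the whole range of levels.

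Many of the genes with the largest decreases are known to be switched on early by T cell receptor signals. Il2, the growth factor that activated T cells make for themselves (3:37120523-37125959, GRCm38), was at 1.09, 0 and 0 CPM at 72 h, against 37.4, 61.6 and 64.8 CPM at 24 h, and was not counted in any library at 0 h. Its log2 fold change was -7.11 ± 0.80 (SE; adjusted p = 3e-06), and without replicate 1 of 72 h, the only library of that time with a count, the fitted value of -10.64 depends on the prior count. Tnf, the inflammatory cytokine, was at 15, 10.6 and 8.08 CPM, against 86.2, 109.6 and 124.6 CPM (log2 fold change -3.26). Lta, a relative of Tnf in the TNF family, was at 8.70, 11.2 and 8.57 CPM, against 118.4, 124.4 and 126.2 CPM (-3.70). In each of these genes every 72 h library lay below every 24 h library. Ifng, the macrophage-activating interferon, was low at both times, at 1.90, 0.302 and 0 CPM, against 11.5, 18.1 and 15.8 CPM (-4.32, and -6.52, fitted to 1 count, without replicate 1 of 72 h). Lif, a cytokine of the IL-6 family, was at 0.816, 2.12 and 0.490 CPM, against 23.8, 26.3 and 27.4 CPM (-4.51, and -5.30 without replicate 2 of 72 h). Of 10 tested T cell cytokines 6 fell, 2 rose and 2 were not called, with a median log2 fold change of -3.48. The risers were Il16, a chemoattractant for CD4+ cells (228.7, 227.4 and 185.6 CPM, against 89.8, 91.7 and 81.1 CPM), and Ltb, the partner chain of lymphotoxin (138.7, 140.0 and 107.3 CPM, against 56.1, 46.8 and 63.0 CPM), both of which were also high at 0 h, at means of 294.5 and 176.5 CPM.

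The chemokines went the same way. Ccl4, an inflammatory chemokine (11:83662584-83664683), was at 2.72, 1.81 and 1.71 CPM at 72 h, against 133.5, 148.5 and 182.8 CPM at 24 h, a log2 fold change of -6.20 ± 0.30 (adjusted p = 1.4e-14). Its neighbour Ccl3 on chromosome 11 was at 1.63, 0 and 0.980 CPM, against 95.8, 100.7 and 120.6 CPM (-6.82, and -7.58 without replicate 1 of 72 h). Xcl1, which attracts cross-presenting dendritic cells, was at 8.16, 1.51 and 2.2 CPM, against 100.7, 86.8 and 132.7 CPM (-4.73, and -5.84 without replicate 1 of 72 h). Ccl1, a ligand of CCR8, was at 1.09, 1.21 and 0.980 CPM, against 32.8, 23.2 and 29.0 CPM (-4.66). Ccl9 had 1 count at 72 h, and its ratio of scaled counts was 0.00939 (95% exact counting interval 0.000236 to 0.0534). Of 6 tested chemokines 5 fell and 0 rose (also 0 by DESeq2 and 0 with an unadjusted p below 0.05), with a median of -5.47. The exception was Ccl5, a chemokine of memory and effector cells, at 8.16, 6.65 and 5.88 CPM, against 5.42, 2.65 and 8.43 CPM, where the times overlapped (0.34, adjusted p = 0.671).

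Transcription factors and feedback regulators induced through the receptor fell with the cytokines. Nr4a3, an orphan nuclear receptor used as a reporter of recent antigen receptor signalling (4:48045153-48086447), was at 22.3, 16.3 and 16.2 CPM at 72 h, against 408.4, 490.5 and 399.3 CPM at 24 h (-4.56 ± 0.22, adjusted p = 9.94e-13). Its relative Nr4a1 was at 10.9, 2.72 and 8.33 CPM, against 106.4, 93.2 and 114.8 CPM (-3.81). Irf4, the transcription factor that scales with receptor signal strength (13:30749226-30766976), averaged 105.2 ± 20.8 CPM at 72 h and 788.0 ± 20.8 CPM at 24 h (SD, n = 3 each), with -2.90. Egr2, a zinc finger factor of early signalling, was at 3.54, 0.605 and 1.71 CPM, against 25.9, 30.5 and 24.2 CPM (-3.74, and -4.49 without replicate 1 of 72 h). Spry1, an inhibitor of MAPK signalling, was at 2.18, 5.44 and 3.92 CPM, against 60.0, 59.7 and 71.6 CPM (-4.05). Fosl1, an AP-1 subunit, was at 0.544, 0.907 and 0.735 CPM, against 18.7, 19.9 and 16.3 CPM (-4.60). Rgs16, which shortens signals of G protein-coupled receptors, was at 2.99, 4.23 and 5.88 CPM, against 74.7, 72.7 and 70.9 CPM (-4.04). Npas4, a calcium-induced factor first known from neurons, was not counted in any 72 h library and was at 11.5, 9.94 and 11.3 CPM at 24 h, at least 39.9-fold lower when 3 counts over the 72 h group are taken as the floor.

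Over the list of 39 tested receptor-induced genes 25 fell, 5 rose and 9 were not called, with a median of -1.73. Among those that rose, Jund, an AP-1 subunit linked to slower growth, was at 428.0, 338.4 and 328.9 CPM, against 168.2, 168.6 and 168.8 CPM (1.11). Nfatc2, a calcium-controlled factor already present in resting T cells, was at 178.7, 170.0 and 218.7 CPM, against 73.2, 90.4 and 66.4 CPM (1.30). Batf, which pairs with IRF4, was at 51.4, 47.5 and 40.7 CPM, against 20.5, 28.9 and 26.6 CPM (0.87). Of 20 NF-kB subunits and inhibitors 11 fell, 4 rose and 5 were not called (median -0.73). Rel, the subunit that antigen receptors use most, was at 53.6, 42.3 and 46.3 CPM, against 229.9, 253.2 and 215.2 CPM (-2.29), and Nfkbid, a nuclear inhibitor-like protein, was at 31.3, 27.2 and 22 CPM, against 168.8, 186.0 and 172.3 CPM (-2.71). Bcl3, a nuclear partner of NF-kB p50 and p52, went the other way, at 28, 30.5 and 20.8 CPM, against 4.82, 9.06 and 8.17 CPM (1.82).

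**Figure D2:**
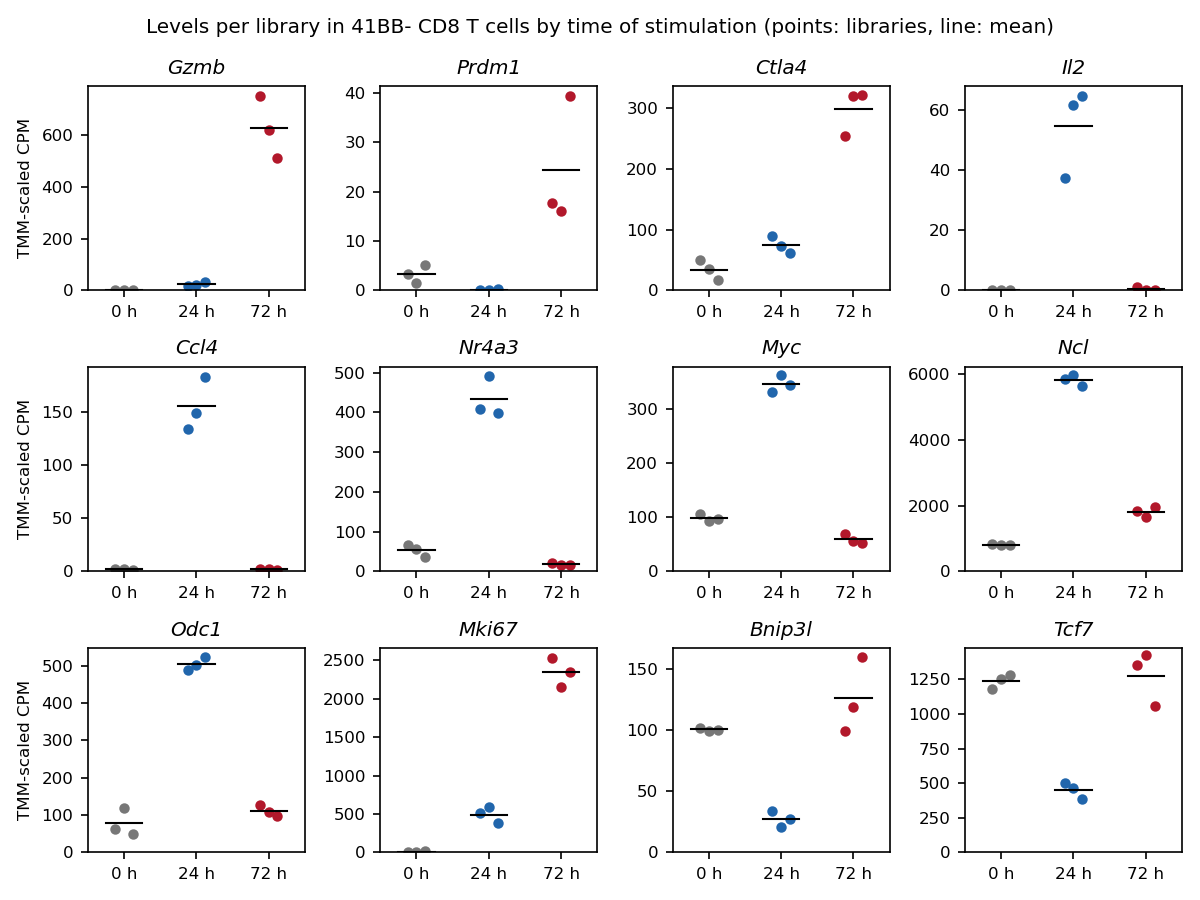
CPM on a linear axis from 0 of 12 genes in 41BB- cells at 0, 24 and 72 h. Points are libraries and the short bar marks each group mean. Il2, Ccl4, Nr4a3, Myc, Ncl and Odc1 stand highest at 24 h, Gzmb, Prdm1, Ctla4 and Mki67 highest at 72 h, and Bnip3l and Tcf7 are lowest at 24 h.

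Effector genes did not move as a block. Gzmb, the serine protease that triggers death of target cells (14:56258838-56262260, minus strand), was at 752.1, 618.8 and 509.9 CPM at 72 h, against 18.7, 19.2 and 33.5 CPM at 24 h, and averaged 0.816 CPM at 0 h. Its log2 fold change was 4.72 ± 0.40 (adjusted p = 5.92e-07). Gzma, a granzyme with another substrate range, was at 2.99, 3.33 and 1.71 CPM and was not counted at 24 h, at least 10.2-fold higher at 72 h with a floor of 3 counts over the 24 h group. Gzmc, of the same gene cluster as Gzmb, was at 13.9, 7.56 and 6.12 CPM, against 0, 0.884 and 0.527 CPM (4.10, and 4.83 without replicate 2 of 24 h). Prf1, perforin, which lets granzymes enter the target, went down instead, at 2.99, 0.605 and 2.69 CPM, against 6.63, 6.85 and 7.11 CPM (-1.66), and was at a mean of 61.3 CPM at 0 h. Serpinb9, an inhibitor that protects the cell from its own granzyme B, was at 7.61, 11.8 and 10.3 CPM, against 50, 61.2 and 64.5 CPM (-2.57). Unc13d, needed for granule release, was at 73.1, 69.3 and 68.3 CPM, against 35.9, 23 and 38.7 CPM (1.12). In the list of 17 tested cytotoxic granule genes 5 rose, 6 fell and 6 were not called, with a median of -0.22, so the large change of Gzmb stood beside decreases of perforin and of granule proteins such as Srgn and Cst7 (-0.69 and -1.04).

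Among effector transcription factors, Prdm1 (Blimp-1), which drives terminal effector differentiation (10:44437177-44528501, minus strand), was at 17.7, 16 and 39.4 CPM at 72 h, with a total of 1 count in the 24 h libraries. The ratio of counts was 293 (95% exact counting interval 52.2 to 11600). Runx3, which sustains the CD8 lineage and its killing genes (4:135120652-135177990), was at 815.5, 714.0 and 621.5 CPM, against 189.9, 198.8 and 153.3 CPM (1.99 ± 0.12, adjusted p = 6.73e-13). Ikzf2 (Helios) was at 238.2, 189.3 and 207.2 CPM, against 53.0, 35.6 and 27.7 CPM (2.46). Gata3, a factor of T cell development and helper type 2 cells, was at 60.9, 55.9 and 66.6 CPM, against 13.3, 9.72 and 12.1 CPM (2.39). Id2, an inhibitor of E proteins tied to effector cells, was at 34.3, 23.9 and 37.2 CPM, against 14.8, 16.6 and 14.5 CPM (1.06). The T-box factors did not pass in edgeR's fit of all libraries. Tbx21 (T-bet) was at 53.0, 53.2 and 41.4 CPM, against 26.8, 49.0 and 46.4 CPM (0.26, adjusted p = 0.37), and Eomes at 15.5, 17.8 and 19.8 CPM, against 9.04, 11.5 and 7.37 CPM, without overlap (0.92, adjusted p = 0.0516). Eomes was called higher in 4 alternatives, the fit of the 6 libraries alone (adjusted p = 0.0138), the same fit with a replicate block (0.0244), no filter on low counts (0.00497) and DESeq2 (0.0481). The summed gamma-delta and innate-like T cell markers were 5.98 to 9.98 CPM at 72 h, against 24.7 to 26.3 CPM at 24 h, with 6 of that list not tested. Of 21 tested factors 10 rose, 5 fell and 6 were not called (median 0.92). The number that fell was 3 without replicate 1 of 72 h, and the median was 0.61 without replicate 3 of 72 h.

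Among cytokine receptors, those for IL-18 and the chain shared by IL-2 and IL-15 rose. Il2rb, the signalling chain that IL-2 and IL-15 share, was at 718.4, 650.8 and 778.8 CPM at 72 h, against 237.8, 245.7 and 203.6 CPM at 24 h (1.64). Il2ra, the high-affinity IL-2 receptor chain, went down, at 417.1, 430.7 and 418.8 CPM, against 658.2, 709.9 and 693.0 CPM (-0.70), at both times above the 0 h mean of 3.28 CPM. Il18r1 was at 174.0, 187.2 and 228.2 CPM, against 28.3, 19.4 and 15.5 CPM (3.23), and its partner chain Il18rap at 75.1, 79.5 and 110.9 CPM, against 11.5, 13.9 and 10.3 CPM (2.89). Il10ra, a receptor chain for IL-10, was also higher (1.87), whereas Il15ra, Il6st and Il12rb1 were lower (-1.72, -0.87 and -0.92). Il7r, the receptor of survival in resting T cells, was at 174.6, 151.2 and 145.0 CPM, against 154.3, 134.8 and 113.5 CPM, and did not pass (0.23, adjusted p = 0.45). Of 24 chains 11 rose, 5 fell and 8 were not called (median 0.45). Of 22 JAK, STAT, SOCS and PIM genes 7 rose, 7 fell and 8 were not called (median -0.20). Within that list the STAT5 target Cish was at 24.2, 7.26 and 16.7 CPM, against 108.2, 114.9 and 93.5 CPM (-2.70), Stat5a at 70.4, 61.1 and 58.5 CPM, against 181.1, 154.7 and 151.4 CPM (-1.36), and Jak3, the kinase bound to the common gamma chain, at 85.9, 82.0 and 114.1 CPM, against 54.8, 62.3 and 41.9 CPM (0.83).

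Costimulatory and inhibitory receptors moved in both directions. Tnfrsf4 (OX40), like 41BB an activation-induced costimulatory receptor, was at 4.62, 7.86 and 5.88 CPM at 72 h, against 56.1, 52.1 and 60.3 CPM at 24 h (-3.20), while Tnfrsf9 itself had -1.66 ± 0.20 (adjusted p = 8.22e-07). Cd27, a costimulatory receptor of resting cells, was at 134.6, 111.9 and 100.4 CPM, against 52.7, 59.9 and 56.9 CPM (1.03). Of 26 TNF receptor and ligand superfamily genes 9 rose, 11 fell and 6 were not called (median -0.25). Ctla4, which competes with CD28 for its ligands, was at 254.0, 320.6 and 321.8 CPM, against 89.5, 72.5 and 62.2 CPM (2.00), and Havcr2 (TIM-3) at 10.1, 8.47 and 14.7 CPM, against 1.21, 1.99 and 2.37 CPM (2.55). Pdcd1 (PD-1) was at 18.8, 22.4 and 18.4 CPM, against 58.2, 66.7 and 73.5 CPM (-1.74), and its ligand Cd274 (PD-L1) at 13.1, 12.1 and 9.55 CPM, against 116.3, 119.5 and 100.9 CPM (-3.28). Cd200, the ligand of an inhibitory receptor on myeloid cells, was at 10.9, 11.8 and 6.86 CPM, against 119.0, 136.1 and 160.7 CPM (-3.83). Lag3, an inhibitory receptor for MHC class II, fell as well, at 35.1, 34.2 and 34.0 CPM, against 54.5, 57.0 and 52.9 CPM (-0.67). Of 17 coinhibitory receptors and ligands 4 rose, 8 fell and 5 were not called (median -0.53). Ctla4 and Havcr2 thus rose while Pdcd1 and Lag3 fell.

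Among adhesion and migration genes more rose than fell. Itgb7, the beta chain of the gut-homing integrins, was at 294.2, 276.7 and 262.8 CPM at 72 h, against 32.2, 45.3 and 35.8 CPM at 24 h (2.87 ± 0.23, adjusted p = 7.54e-09). Selplg, the selectin ligand PSGL-1, was at 381.5, 334.8 and 361.0 CPM, against 117.5, 112.0 and 98.0 CPM (1.72). Itgb3, the beta 3 integrin chain (11:104608000-104670476), was at 63.1, 54.1 and 52.2 CPM, against 1.21, 0 and 1.05 CPM (6.28, and 5.55 without replicate 2 of 24 h). Gpr15, a receptor for homing to the colon, was at 53.3, 53.2 and 30.4 CPM with 3 counts in all at 24 h, a ratio of counts of 174 (95% exact counting interval 59.2 to 846). S1pr4, a sphingosine phosphate receptor, was at 77.0, 65.9 and 49.0 CPM, against 13, 7.73 and 11.6 CPM (2.58). S1pr1, the receptor for exit from lymph nodes, was at 108.8, 80.7 and 101.9 CPM, against 50, 44.4 and 36.9 CPM (1.15). Ccr8 went down to 0.544, 0 and 0.980 CPM, against 13.3, 7.73 and 6.06 CPM (-3.99, and -4.88 without replicate 3 of 72 h), as did Icam1 (-1.17) and Cd44, the hyaluronan receptor that marks activation (-0.57). Of 35 tested genes of chemokine receptors, integrins and homing 17 rose, 6 fell and 12 were not called (median 0.72).

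The group of S100, annexin, galectin and actin cytoskeleton genes rose almost throughout, with 21 of 25 tested genes higher, 0 lower (also 0 by DESeq2 and 0 with an unadjusted p below 0.05) and a median of 1.71. Lgals1, galectin-1 (15:78926725-78930465), was at 384.8, 429.5 and 356.8 CPM at 72 h, against 17.8, 16.3 and 15.8 CPM at 24 h, and averaged 21.8 CPM at 0 h. Its log2 fold change of 4.55 ± 0.16 had an adjusted p of 7.49e-18. Lgals3, galectin-3, was at 142.2, 129.1 and 109.5 CPM, against 4.52, 2.87 and 3.95 CPM (5.08). S100a10, the partner of annexin A2, was at 350.0, 442.5 and 368.6 CPM, against 78.1, 58.3 and 74.3 CPM (2.47). S100a6, a calcium-binding protein, was at 75.3, 65.0 and 32.6 CPM, against 0.301, 1.33 and 0.527 CPM (6.16, and 6.92 without replicate 2 of 24 h). Anxa6, a membrane-binding annexin, was at 561.8, 550.7 and 596.6 CPM, against 131.7, 122.6 and 115.4 CPM (2.21). In all 5 genes the times were far apart and did not overlap. Other genes with the largest rises were Gucy2e, a membrane guanylyl cyclase (ratio of counts 317, 95% exact counting interval 56.4 to 12500), Ifitm1, a membrane protein of the interferon-induced family (120, 21.1 to 4780), Cacnb3, a calcium channel subunit (75.7, 20.6 to 631), Endou (82.6, 22.5 to 688), and Napsa, an aspartic protease with no count at 24 h (at least 26.6-fold higher).

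The programme of ribosome building went down as a whole. Of 41 ribosome biogenesis factors 40 were lower at 72 h, 0 higher (also 0 by DESeq2 and 0 with an unadjusted p below 0.05) and 1 was not called, with a median of -1.77 beside 0.04 over all genes. Ncl, nucleolin, the abundant protein of the nucleolus (1:86344719-86359400, minus strand), was at 1826.3, 1650.1 and 1972.9 CPM at 72 h, against 5854.2, 5965.3 and 5633.1 CPM at 24 h, and averaged 818.6 CPM at 0 h (-1.68 ± 0.08, adjusted p = 1.4e-14). Npm1, nucleophosmin, was at 965.6, 1058.2 and 1172.3 CPM, against 2631.3, 2506.5 and 2682.9 CPM (-1.29). Heatr1, a subunit of the small-subunit processome, was at 115.6, 87.7 and 102.1 CPM, against 412.3, 439.0 and 394.3 CPM (-2.03). Tsr1, a late assembly factor of the small subunit, was at 43.0, 38.7 and 37.0 CPM, against 200.4, 185.1 and 174.9 CPM (-2.24). Every library of 72 h lay below every library of 24 h in these genes and above the 0 h mean for Ncl and Npm1, whereas Heatr1 and Tsr1 were below their 0 h means of 121.9 and 64.0 CPM. The 37 tested cytosolic ribosomal proteins themselves moved little, with 13 lower, 0 higher (0 by DESeq2 and 1 with an unadjusted p below 0.05), 24 not called and a median of -0.20, and 20 were lower without replicate 2 of 24 h. Rpl7 was at 827.7, 1028.0 and 945.5 CPM, against 1313.4, 1163.0 and 1376.2 CPM (-0.46).

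Myc, the transcription factor of that growth programme (15:61985391-61990374), was at 69.9, 55.9 and 53.1 CPM at 72 h, against 331.5, 362.3 and 345.0 CPM at 24 h, and averaged 98.6 CPM at 0 h (-2.54 ± 0.13, adjusted p = 1.4e-14). The MXD proteins, which compete with MYC for MAX, moved the opposite way. Mxd4 was at 87.3, 92.5 and 74.4 CPM, against 3.62, 8.84 and 7.90 CPM (3.60), Mxd3 at 41.1, 36.3 and 29.4 CPM, against 8.44, 1.55 and 3.42 CPM (3.04, and 3.79 without replicate 1 of 24 h), and Mxi1 at 35.6, 28.7 and 85.7 CPM, against 10.5, 8.62 and 10 CPM (2.37, and 1.67 without replicate 3 of 72 h). Mycn, a relative of Myc, was low, at 4.89, 5.75 and 4.90 CPM with no count at 24 h (at least 20.0-fold higher with a floor of 3 counts over the group). Of 12 tested genes of the MYC, MAX and MXD network 5 rose, 3 fell and 4 were not called (median 0.33, and 0.19 without replicate 3 of 24 h).

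MYC binds the E-box CACGTG, and the promoters of ribosome biogenesis genes were searched for it in the RefSeq promoter table (GRCm38.p6, 250 bases before to 50 after the start, both strands). Of 12686 tested genes 7045 matched a promoter with 1 listed start. The following stretch of the promoter of Nop2, an rRNA methyltransferase, is shown as an example of an E-box in a gene that fell, with the motif in capitals, on the gene's strand.
Nop2, chr6:125131778-125131873, plus strand: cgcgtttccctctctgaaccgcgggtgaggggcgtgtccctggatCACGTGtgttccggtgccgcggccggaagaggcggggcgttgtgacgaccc
The motif lies 60 bases before the start. Nop2 was at 71.8, 66.2 and 45.6 CPM at 72 h, against 240.8, 229.6 and 265.8 CPM at 24 h (-2.01, adjusted p = 9.57e-08). CACGTG was in 8 of 33 matched promoters of ribosome biogenesis genes called lower (24.2%), beside 10.3% of all matched promoters, 13.6% of those of all genes called lower and 8.55% of those of genes called higher. In the 250 bases before the start alone the shares of all, lower and higher genes were closer, at 8.46%, 9.78% and 7.7%. The share of the list was not taken in that shorter window. A match of letters in a promoter is a description and says nothing of binding.

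Most translation factors and chaperones followed. Of 34 translation factors 28 fell, 2 rose and 4 were not called (median -0.88). Both risers lost their call without replicate 3 of 72 h or of 24 h, and 1 rose without replicate 1 of 24 h. Eif4e, the cap-binding protein, was at 62.0, 56.6 and 69.8 CPM at 72 h, against 171.2, 156.2 and 168.0 CPM at 24 h (-1.39), and Eef1e1, a scaffold protein of the tRNA synthetase complex, at 13.9, 16.3 and 16.4 CPM, against 76.8, 81.1 and 94.0 CPM (-2.43). Of 33 tRNA synthetases and ATF4 stress genes 20 fell, 6 rose and 7 were not called (median -0.70), and 2 rose without replicate 3 of 72 h. The synthetases Iars and Farsb fell (-1.14 and -1.22), whereas Trib3, a pseudokinase induced by ATF4, was at 14.1, 19.4 and 22.8 CPM, against 1.21, 1.10 and 0.527 CPM (4.26). Of 31 heat shock proteins and chaperonins 24 fell, 1 rose and 6 were not called (median -0.96), and the riser lost its call without replicate 1 or 2 of 72 h or replicate 1 or 3 of 24 h. Hspa8, the constitutive HSP70, was at 1971.5, 2173.9 and 2106.8 CPM, against 5001.9, 4647.8 and 5255.2 CPM (-1.25), and the chaperonin subunit Cct6a at 176.2, 208.1 and 213.3 CPM, against 613.0, 612.4 and 639.5 CPM (-1.64).

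Transcripts of most genes for mitochondrial ribosomes and protein import also went down, although transcripts of the mitochondrial genome took a larger share of the counts at 72 h. Of 42 mitochondrial ribosome and import genes 32 fell, 1 rose and 9 were not called (median -0.83). The riser Mrpl4 (0.55) lost its call by DESeq2 and in each fit with a library left out other than that without replicate 3 of 72 h. Hspd1, the mitochondrial chaperonin HSP60, was at 252.6, 282.2 and 275.3 CPM, against 1083.4, 1095.4 and 1106.8 CPM (-2.02), and Tomm70a, an import receptor of the outer membrane, at 134.9, 139.7 and 129.5 CPM, against 275.8, 285.2 and 256.8 CPM (-1.02). Of 34 proteasome subunits 21 fell, 0 rose (also 0 by DESeq2 and 0 with an unadjusted p below 0.05) and 13 were not called (median -0.52). Psme3, a nuclear proteasome activator counted in that list, was at 114.5, 98.3 and 103.8 CPM, against 373.4, 350.4 and 367.7 CPM (-1.78). Secretory and unfolded protein genes were mixed, with 6 of 28 higher, 8 lower and 14 not called (median -0.12), and 3 higher without replicate 2 of 72 h or replicate 1 or 2 of 24 h. Hspa5 (BiP), the main chaperone of the endoplasmic reticulum, was at 291.0, 291.2 and 280.2 CPM, against 732.6, 687.8 and 764.6 CPM (-1.34), and Sec11c, a signal peptidase subunit, at 139.8, 148.2 and 99.4 CPM, against 32.5, 29.4 and 32.1 CPM (2.04).

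Among polyamine genes more fell than rose. Odc1, ornithine decarboxylase, the entry enzyme of polyamine synthesis (12:17544794-17551505), was at 126.4, 108.6 and 98.4 CPM at 72 h, against 490.0, 502.0 and 523.9 CPM at 24 h (-2.19). Srm, spermidine synthase, was at 43.8, 39.6 and 26.9 CPM, against 217.0, 213.2 and 240.5 CPM (-2.61). Amd1, which makes the aminopropyl donor, was at 41.3, 30.8 and 33.8 CPM, against 98.8, 108.7 and 100.4 CPM (-1.54), with the reservation that reads may be split between it and its near-identical copy Amd2. Eif5a, the protein that carries the spermidine-derived residue hypusine, was at 601.5, 697.7 and 553.0 CPM, against 1120.5, 961.1 and 1148.6 CPM (-0.80). Of 17 polyamine and hypusine genes 10 fell, 1 rose and 6 were not called (median -0.80), and 2 rose without replicate 3 of 72 h. The riser was Atp13a2, a lysosomal polyamine exporter (1.86). Of 13 genes of the methionine cycle and salvage 5 fell, 2 rose and 6 were not called (median -0.42). Both risers lost their call without replicate 1 of 72 h or without any 1 of the 24 h libraries, and 1 rose without replicate 2 or 3 of 72 h. Among those that fell was Mat2a, which makes S-adenosylmethionine, at 112.3, 113.4 and 74.0 CPM, against 269.4, 305.6 and 283.4 CPM (-1.52).

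Of 29 serine, folate and nucleotide synthesis genes 18 fell, 1 rose and 10 were not called (median -0.49). Gart, a trifunctional enzyme of purine synthesis, was at 137.6, 135.8 and 143.5 CPM, against 359.8, 381.8 and 366.6 CPM (-1.41), and Mthfd1, an enzyme of cytosolic folate metabolism, at 127.3, 124.3 and 119.5 CPM, against 325.8, 345.1 and 314.8 CPM (-1.41). The riser Tk1, the thymidine kinase of S phase, was at 111.2, 125.5 and 74.4 CPM, against 38.3, 48.4 and 34.8 CPM (1.35). Amino acid transporters were divided, with 5 of 17 higher, 5 lower and 7 not called (median 0.24). Slc7a5, which imports large neutral amino acids, was at 135.7, 124.3 and 118.8 CPM, against 195.0, 218.3 and 189.4 CPM (-0.67), and Slc43a2, another transporter of neutral amino acids, at 96.3, 70.8 and 77.6 CPM, against 24.7, 30.7 and 25.3 CPM (1.59). Of 18 branched-chain amino acid genes 5 rose, 4 fell and 9 were not called (median 0.01), and 3 rose without replicate 2 of 72 h or replicate 3 of 24 h. They included Bcat1, the cytosolic transaminase, at 60.4, 55.3 and 62.7 CPM, against 228.4, 219.4 and 222.8 CPM (-1.91), and Bcat2, the mitochondrial transaminase, at 30.7, 31.5 and 39.9 CPM, against 17.2, 13.7 and 12.6 CPM (1.24).

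While the growth genes fell, those of mitosis rose. Mki67, the proliferation antigen of mitotic chromosomes (7:135689784-135716361, minus strand), was at 2532.7, 2153.6 and 2341.9 CPM at 72 h, against 509.0, 589.7 and 378.2 CPM at 24 h, and averaged 9.12 CPM at 0 h (2.25 ± 0.24, adjusted p = 2.52e-06). Of 75 tested genes of G2 and mitosis 66 rose, 1 fell and 8 were not called, with a median of 1.44. Ccnb2, a mitotic cyclin, was at 118.8, 125.2 and 119.0 CPM, against 11.5, 6.85 and 8.69 CPM (3.76). Cenpa, the histone variant of centromeres, was at 137.1, 133.4 and 99.7 CPM, against 18.1, 15 and 8.69 CPM (3.15). Cdc25b, the phosphatase that starts mitotic entry, was at 188.2, 149.7 and 145.2 CPM, against 16.9, 20.1 and 16.1 CPM (3.18). Ncapd2, a condensin subunit, was at 436.4, 489.0 and 502.3 CPM, against 120.5, 118.2 and 100.6 CPM (2.07), and Top2a, the topoisomerase that untangles sister chromatids, at 1128.5, 1275.7 and 1281.0 CPM, against 563.9, 607.4 and 494.6 CPM (1.15). Tuba1b, a tubulin, was the member that fell, at 103.6, 122.5 and 110.2 CPM, against 152.2, 140.7 and 144.9 CPM (-0.38), in a gene family whose near-identical copies may share reads.

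Promoters of late cell cycle genes are known to carry the cell cycle homology region TTTGAA, bound by the MuvB complexes, often beside a CCAAT box. Stretches of 3 such promoters are shown on the gene's strand with TTTGAA in capitals, since most of the mitotic promoters searched held it.
Ncapd2, chr6:125191659-125191754, minus strand: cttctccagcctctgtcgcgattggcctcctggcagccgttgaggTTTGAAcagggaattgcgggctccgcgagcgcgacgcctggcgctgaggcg
Ccnb2, chr9:70421671-70421766, minus strand: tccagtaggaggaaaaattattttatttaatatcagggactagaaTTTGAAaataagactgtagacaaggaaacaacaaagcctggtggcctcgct
Hmgb2, chr8:57511768-57511842, plus strand: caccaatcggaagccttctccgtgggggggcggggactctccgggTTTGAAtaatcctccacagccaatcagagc
The motif lies 123 bases before the listed start in Ncapd2, 167 in Ccnb2 and 30 in Hmgb2. Hmgb2, a chromatin protein of dividing cells, was at 474.2, 443.7 and 471.2 CPM at 72 h, against 161.2, 152.9 and 158.8 CPM at 24 h (1.55, adjusted p = 1.93e-11). TTTGAA, searched on both strands, was in 37 of 50 matched promoters of G2 and mitosis genes called higher (74.0%), beside 12.1% of all matched promoters, 14.8% of those of all genes called higher and 11.5% of those of genes called lower. CCAAT was also in 37 of the 50 (74.0%), beside 39.5% of all.

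**Figure D3:**
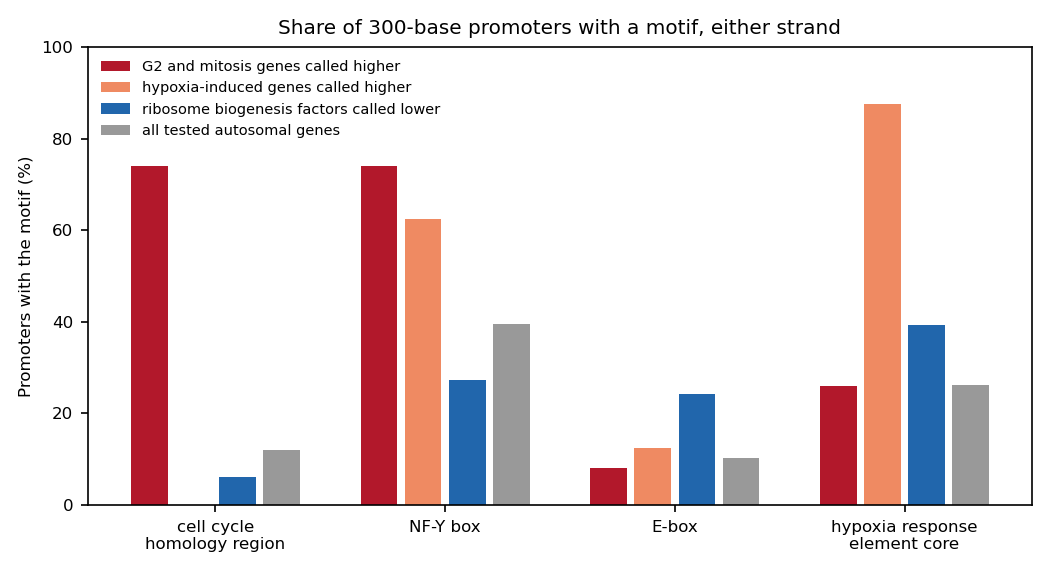
Percent of matched 300-base promoters (bars start at 0) that hold the cell cycle element, the CCAAT box, the E-box or the hypoxia element, for G2 and mitosis genes called higher, hypoxia-induced genes called higher, ribosome biogenesis factors called lower and all tested genes. The bar of the cell cycle element is 74.0% in the mitotic genes and 12.1% in all promoters, and the bar of the hypoxia element is 87.5% in the hypoxia-induced genes and 26.3% in all.

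All 38 tested replication-dependent histone genes were called higher at 72 h, with a median of 1.5 (0 were called lower, also 0 by DESeq2 and 0 with an unadjusted p below 0.05). Hist1h1c, a linker histone, was at 1662.3, 1886.6 and 1185.0 CPM, against 432.5, 356.6 and 478.3 CPM (1.90), and Hist1h3d, a core histone H3 gene, at 153.9, 199.9 and 145.0 CPM, against 45.5, 34.5 and 31.9 CPM (2.16). Histone genes are near-identical copies, so the share of each copy is uncertain. The library kit reads total RNA, in which histone transcripts without a poly(A) tail are kept. Such transcripts end in a stem-loop, here searched on the transcript's strand in its last 200 bases, as a stem GGNNCT, a loop TTTN and a closing AGNNCC. Matches of 4 histone genes are shown, with the 8 bases of the loop and its flanks in capitals.
Hist1h2ag, chromosome 13: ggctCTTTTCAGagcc
Hist1h2bb, chromosome 13: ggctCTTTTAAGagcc
Hist1h4h, chromosome 13: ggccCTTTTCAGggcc
Hist2h2ac, chromosome 3: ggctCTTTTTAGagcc
The pattern was found in 14 of the 38 listed histone genes (36.8%) and in 13 of the 12648 other tested genes (0.103%). Of those 13, 10 were called higher (76.9%), and all 10 carry histone names outside the list. Hist1h2bf, named here after its values were seen, was among them at 114.5, 104.3 and 75.9 CPM, against 3.92, 5.08 and 7.64 CPM (4.13). Hist1h2ag, one of the 4 shown, was at 231.7, 296.7 and 216.0 CPM, against 105.2, 68.5 and 82.2 CPM (1.54).

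Most genes of DNA synthesis itself were not called, as held for all tested genes (7472 of 12686). Of 43 DNA replication genes 7 rose, 7 fell and 29 were not called (median 0.05), and the number that rose was 4 without any 1 of the 72 h libraries or without replicate 3 of 24 h. Mcm5, a subunit of the replicative helicase, was at 330.7, 347.2 and 335.5 CPM, against 371.6, 378.0 and 373.5 CPM and a 0 h mean of 31.6 CPM (-0.15, adjusted p = 0.291). Mcm2, another helicase subunit, was at 230.6, 238.0 and 241.7 CPM, against 356.5, 305.8 and 327.7 CPM (-0.48), and Pold2, a polymerase delta subunit, at 40.0, 28.7 and 24.5 CPM, against 85.0, 75.1 and 70.3 CPM (-1.31). Dbf4, the activator of the CDC7 kinase, was at 121.0, 111.6 and 111.2 CPM, against 62.7, 77.3 and 68.5 CPM (0.72). Among 29 G1 cyclins, CDKs, E2F and RB genes 13 rose, 8 fell and 8 were not called (median 0.41, and 0.26 without replicate 3 of 24 h). Ccnd2, the cyclin D of early activation, was at 229.8, 210.2 and 249.3 CPM, against 926.1, 891.3 and 860.2 CPM (-1.96). E2f2, an E2F factor, was at 318.2, 294.3 and 230.7 CPM, against 28.9, 22.8 and 14 CPM (3.69). Of 42 DNA repair and damage response genes 10 rose, 8 fell and 24 were not called (median 0.06), and the number that rose was 6 without replicate 3 of 72 h or replicate 1 of 24 h and 5 without replicate 3 of 24 h. Chek2, a checkpoint kinase, was at 35.9, 34.8 and 40.2 CPM, against 8.14, 15.2 and 11.3 CPM (1.66), and Gadd45b, a stress-induced gene also driven by NF-kB, at 9.25, 9.07 and 11.3 CPM, against 62.1, 74.2 and 78.2 CPM (-2.85).

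In metabolism, more glycolysis genes rose than fell. Eno1, enolase (4:150236721-150248879), was at 604.2, 734.3 and 828.2 CPM at 72 h, against 373.7, 367.9 and 362.7 CPM at 24 h, and averaged 115.7 CPM at 0 h (0.97 ± 0.13, adjusted p = 5.93e-07). Aldoa, aldolase (ENSMUSG00000030695), was at 711.6, 872.8 and 1213.7 CPM, against 466.5, 422.0 and 505.2 CPM (1.01), and Gpi1, glucose phosphate isomerase, at 468.3, 569.8 and 737.4 CPM, against 315.2, 300.5 and 291.3 CPM (0.97). In these 3 genes replicate 3 was the highest library of 72 h. Hk1, a hexokinase, was at 159.1, 192.6 and 205.0 CPM, against 77.2, 83.5 and 74.5 CPM (1.24), whereas the inducible Hk2 was at 63.1, 74.4 and 141.3 CPM, against 136.8, 158.4 and 157.2 CPM (-0.69) and was not called without replicate 1 (-0.53) or 2 (-0.61) of 72 h. Slc16a1, a lactate exporter, was at 61.7, 75.3 and 81.1 CPM, against 205.2, 205.9 and 191.5 CPM (-1.47). Of 28 glycolysis and pentose phosphate genes 16 rose, 4 fell and 8 were not called (median 0.76). Slc2a1, the glucose transporter GLUT1, was at 54.7, 100.1 and 179.0 CPM, against 63.0, 60.1 and 66.4 CPM, and its call (0.82, adjusted p = 0.0259) was lost without replicate 3 of 72 h (0.23) and without any 1 of the 24 h libraries.

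Of 22 tested genes known to be induced by hypoxia 15 rose, 2 fell and 5 were not called (median 1.66). Without replicate 3 of 72 h the median was 0.96 and 12 rose, and 1 fell without replicate 1 or 2 of 72 h. Bnip3l, a mitophagy receptor (14:66985239-67008877, minus strand), was at 99.5, 118.9 and 160.4 CPM, against 34.1, 20.8 and 27.4 CPM (2.22). Pdk1, the kinase that holds pyruvate back from the mitochondrion, was at 149.3, 187.2 and 238.8 CPM, against 62.4, 63.6 and 65.1 CPM (1.59), and Narf at 63.4, 93.1 and 76.7 CPM, against 11.2, 13.3 and 12.4 CPM (2.65). Ddit4, an inhibitor of mTORC1, was at 29.1, 38.7 and 76.4 CPM, against 3.32, 7.95 and 8.69 CPM (2.83). Bnip3l and Pdk1 averaged 100.6 and 198.1 CPM at 0 h, so their 72 h levels were near those before culture. Car12, a carbonic anhydrase, was a member that fell (-1.84). The core hypoxia response element ACGTG was in 7 of 8 matched promoters of the hypoxia genes called higher (87.5%), beside 26.3% of all matched promoters. It was in 23.4% of those of all genes called higher and in 31.3% of those of all genes called lower. In the 250 bases before the start alone the shares of all, higher and lower genes were 22.4%, 21.1% and 24.4%. ACGTG lies within the E-box CACGTG, so the searches overlap.

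Lipid genes divided by enzyme. Scd2, a stearoyl-CoA desaturase (19:44293674-44306864), was at 390.8, 566.5 and 696.0 CPM at 72 h, against 46.1, 64.5 and 50 CPM at 24 h (3.36 ± 0.21, adjusted p = 7.73e-11), and Srebf1, the transcription factor of fatty acid synthesis, at 107.4, 121.0 and 138.1 CPM, against 44.3, 51.9 and 45.6 CPM (1.37). Fasn, fatty acid synthase, was at 308.4, 240.1 and 265.5 CPM, against 465.3, 502.9 and 438.8 CPM (-0.79), and Idi1, of the mevalonate pathway, at 59.6, 53.2 and 47.3 CPM, against 103.7, 109.4 and 143.3 CPM (-1.16). Hmgcs1, a classic target of SREBP-2, was not called (0.05, adjusted p = 0.82). Of 35 sterol and fatty acid synthesis genes 18 rose, 5 fell and 12 were not called (median 0.48). Fatty acid oxidation leaned up, with 10 of 21 genes higher, 0 lower (also 0 by DESeq2 and 0 with an unadjusted p below 0.05) and 11 not called (median 0.47). Cpt1a, which admits fatty acids to the mitochondrion, was at 89.7, 95.3 and 98.4 CPM, against 27.1, 19.4 and 19.8 CPM (2.10). Of 33 autophagy and lysosome genes 18 rose, 2 fell and 13 were not called (median 0.56). Without replicate 2 of 24 h 11 rose, and 1 fell without replicate 1 or 2 of either time. Tfeb, the transcription factor of lysosomal genes, was at 26.9, 27.2 and 31.1 CPM, against 6.93, 8.17 and 5.27 CPM (2.05), and Npc1, a lysosomal cholesterol exporter, at 69.1, 71.1 and 79.8 CPM, against 28, 35.1 and 24.8 CPM (1.32).

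Most genes of oxidative phosphorylation were not called, beside 7472 of 12686 over all tested genes. Of 48 nuclear genes of oxidative phosphorylation 1 rose, 7 fell and 40 were not called (median 0.03), and the riser lost its call without any 1 of the 6 libraries. Cycs, cytochrome c, was among those that fell, at 30.5, 31.8 and 28.9 CPM, against 75.6, 74.2 and 83.5 CPM (-1.36). Of 28 genes of the TCA cycle, pyruvate and glutamine 6 rose, 8 fell and 14 were not called (median -0.16), with Idh3a, a subunit of the NAD-linked isocitrate dehydrogenase, at 120.2, 112.5 and 86.4 CPM, against 194.7, 165.3 and 177.8 CPM (-0.75), and Pcx, pyruvate carboxylase, at 19.3, 13.6 and 27.7 CPM, against 4.22, 5.08 and 5.53 CPM (2.02). Of 25 redox genes 6 rose, 6 fell and 13 were not called (median -0.18), and 3 rose without replicate 2 of 24 h. Glrx, glutaredoxin-1, was at 31.8, 31.5 and 46.5 CPM, against 3.92, 3.53 and 3.69 CPM (3.30), while Txnrd1, thioredoxin reductase, was at 132.2, 133.4 and 143.3 CPM, against 334.5, 299.4 and 284.5 CPM (-1.17).

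Genes of the resting cell partly returned. Of 25 quiescence factors 15 rose, 4 fell and 6 were not called (median 0.91). Cdkn1b (p27), a brake on G1 kinases, was at 113.1, 127.0 and 111.2 CPM at 72 h, against 19, 21.2 and 22.7 CPM at 24 h, and averaged 117.2 CPM at 0 h (2.48 ± 0.15, adjusted p = 4.32e-13). Btg2, an antiproliferative gene, was at 130.3, 122.5 and 93.8 CPM, against 25.6, 29.6 and 32.9 CPM (1.97), and Klf2, the factor that keeps T cells resting and recirculating, at 170.0, 161.5 and 110.2 CPM, against 46.4, 39.1 and 42.7 CPM, below its 0 h mean of 469.7 CPM (1.79). Btg1, a relative of Btg2, and Slfn2, a Schlafen gene needed for quiescence, fell instead (-0.90 and -1.22). Of 30 naive and memory T cell genes 14 rose, 3 fell and 13 were not called (median 0.45, and 0.29 without replicate 3 of 24 h). Tcf7 (TCF-1), the transcription factor of naive and stem-like cells (11:52252371-52283014, minus strand), was at 1351.7, 1424.4 and 1055.0 CPM, against 498.5, 466.8 and 387.4 CPM, with a 0 h mean of 1236.7 CPM (1.5 ± 0.12, adjusted p = 5.56e-11). Satb1, a chromatin organiser of T cells, was at 450.3, 399.2 and 427.6 CPM, against 239.9, 214.8 and 200.4 CPM (0.96). Ccr7, a chemokine receptor for entry to lymph nodes, was at 158.5, 174.5 and 151.6 CPM, against 162.7, 137.6 and 135.1 CPM, and did not pass the test (0.15, adjusted p = 0.445). Bach2, a repressor of effector genes, fell to 179.7, 171.2 and 233.9 CPM, against 527.1, 520.3 and 388.8 CPM (-1.29). Thus Tcf7 and Klf2 rose and Bach2 fell between the same libraries.

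Among genes of the receptor complex and its adaptors more rose than fell. Of 32 CD8, CD3 and TCR signaling genes 17 rose, 3 fell and 12 were not called (median 0.54), and 5 to 7 fell without replicate 1 or 3 of 72 h or replicate 3 of 24 h. Cd3g, a CD3 chain, was at 381.2, 401.0 and 354.6 CPM, against 169.7, 137.9 and 176.2 CPM (1.23), Cd2, an adhesion receptor, at 218.4, 229.2 and 232.4 CPM, against 77.2, 69.6 and 75.1 CPM (1.62), and Themis, a signalling protein of thymocytes and T cells, at 540.3, 549.2 and 744.5 CPM, against 206.1, 217.6 and 176.5 CPM (1.61). Among the members that fell were Cd5 and Cd6, scavenger receptor proteins that dampen the signal (-0.69 and -1.18). Of 6 GIMAP genes, small GTPases of lymphocyte survival, 5 rose, 0 fell (also 0 by DESeq2 and 0 with an unadjusted p below 0.05) and 1 was not called (median 1.02), with Gimap4 at 379.9, 322.4 and 297.3 CPM, against 104.9, 114.9 and 143.3 CPM (1.46). Of 6 tested NK-type receptors 2 rose, 1 fell and 3 were not called (median 0.45), and the risers Klrd1 (1.29) and Klrk1 (2.64) each lost their call when a library was left out. Without replicate 3 of 72 h 2 fell and the median was 0.21. The value of Klrd1 was 0.99 without replicate 3 of 72 h. Those of Klrk1 were 2.18 (without replicate 3 of 72 h), 2.42 and 2.13 (without replicate 1 or 3 of 24 h), and it was called at 3.63 without replicate 2 of 24 h.

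Interferon genes were mixed. Of 45 tested type I interferon response genes 15 rose, 14 fell and 16 were not called (median 0.10), and 9 rose without replicate 3 of 24 h. Ly6e, a membrane-anchored protein, was at 365.2, 368.7 and 296.8 CPM at 72 h, against 109.4, 108.0 and 91.1 CPM at 24 h (1.74), and Samd9l, an antiviral factor, at 53.8, 59.0 and 84.0 CPM, against 13.9, 19.7 and 17.6 CPM (1.93). Iigp1, an interferon-induced GTPase, was at 28.6, 22.7 and 23 CPM, against 64.8, 68.9 and 63.5 CPM (-1.41), and Gbp2, a guanylate-binding protein, at 51.1, 46.9 and 67.3 CPM, against 132.0, 146.9 and 135.4 CPM (-1.32). The standard reporters Ifit1 and Isg15 were at or near the limit of detection, with 1 count of Ifit1 and 3 counts of Isg15 at 72 h, ratios of 0.0877 (95% exact counting interval 0.00205 to 0.592) and 0.789 (0.116 to 4.66). Of 18 Schlafen and Ifi200 genes 6 rose, 3 fell and 9 were not called (median 0.05), and 3 rose without replicate 3 of 24 h. Of 25 MHC class I and peptide loading genes 9 rose, 4 fell and 12 were not called (median 0.16). Psmb8, a catalytic subunit of the immunoproteasome, was at 324.4, 408.6 and 320.1 CPM, against 156.1, 131.2 and 159.1 CPM (1.24), and Tap2, of the peptide transporter, at 124.3, 125.8 and 110.2 CPM, against 51.8, 63.0 and 59.8 CPM (1.04), while Psme2, of the interferon-inducible proteasome activator, was at 22.6, 21.8 and 23.3 CPM, against 38.6, 44.0 and 54.5 CPM (-1.02).

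Among the remaining groups, ion channels and calcium genes leaned up, with 19 of 27 higher, 3 lower and 5 not called (median 0.89). Atp2b4, a calcium pump of the plasma membrane, was at 94.1, 116.4 and 132.7 CPM, against 17.5, 20.5 and 15 CPM (2.69), and Atp2a3, a pump of the endoplasmic reticulum, at 267.6, 262.2 and 249.5 CPM, against 65.1, 83.1 and 68.0 CPM (1.85). Orai1, the pore of store-operated calcium entry, fell to 16.3, 14.8 and 14.4 CPM, against 45.8, 45.7 and 52.2 CPM (-1.65). Of 25 BCL2 family and death receptor genes 9 rose, 6 fell and 10 were not called (median 0.55, and 0.32 without replicate 3 of 72 h). The survival gene Bcl2l1 (BCL-XL) was at 74.0, 44.5 and 57.8 CPM, against 294.1, 329.2 and 325.8 CPM (-2.43), whereas the death-promoting Bmf was at 9.79, 13.3 and 16.7 CPM, against 0.904, 2.65 and 2.37 CPM (2.69), and Apaf1, of the apoptosome, at 86.5, 104.3 and 98.2 CPM, against 39.8, 44.6 and 43.7 CPM (1.17).

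In the nucleus, 20 of 32 SR and hnRNP splicing factors fell, 2 rose and 10 were not called (median -0.35). Both risers lost their call without replicate 1 of 72 h or of 24 h, and 1 rose without replicate 2 of 72 h or replicate 3 of 24 h. Hnrnpa1 fell, at 193.3, 258.6 and 244.9 CPM, against 607.6, 586.1 and 540.5 CPM (-1.32). Of 24 polycomb, DNA methylation and TET genes 9 rose, 7 fell and 8 were not called (median 0.10), and 4 rose without replicate 3 of 72 h and 5 without replicate 1 or 3 of 24 h. Dnmt1, the maintenance methyltransferase, was at 776.1, 776.0 and 766.8 CPM, against 485.2, 519.2 and 406.1 CPM (0.72), and Dnmt3a, the de novo enzyme, at 119.9, 128.5 and 112.2 CPM, against 256.5, 292.5 and 248.9 CPM (-1.15). Of 15 noncoding RNAs and snoRNA hosts 10 fell, 2 rose and 3 were not called (median -1.09). Mir155hg, the host transcript of miR-155, was at 12.2, 21.8 and 15.9 CPM, against 113.0, 180.1 and 147.2 CPM (-3.15), and Neat1, the RNA of nuclear paraspeckles, at 108.0, 88.6 and 74.9 CPM, against 13, 17.5 and 12.1 CPM, near its 0 h mean of 97.0 CPM (2.66).

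**Figure D4:**
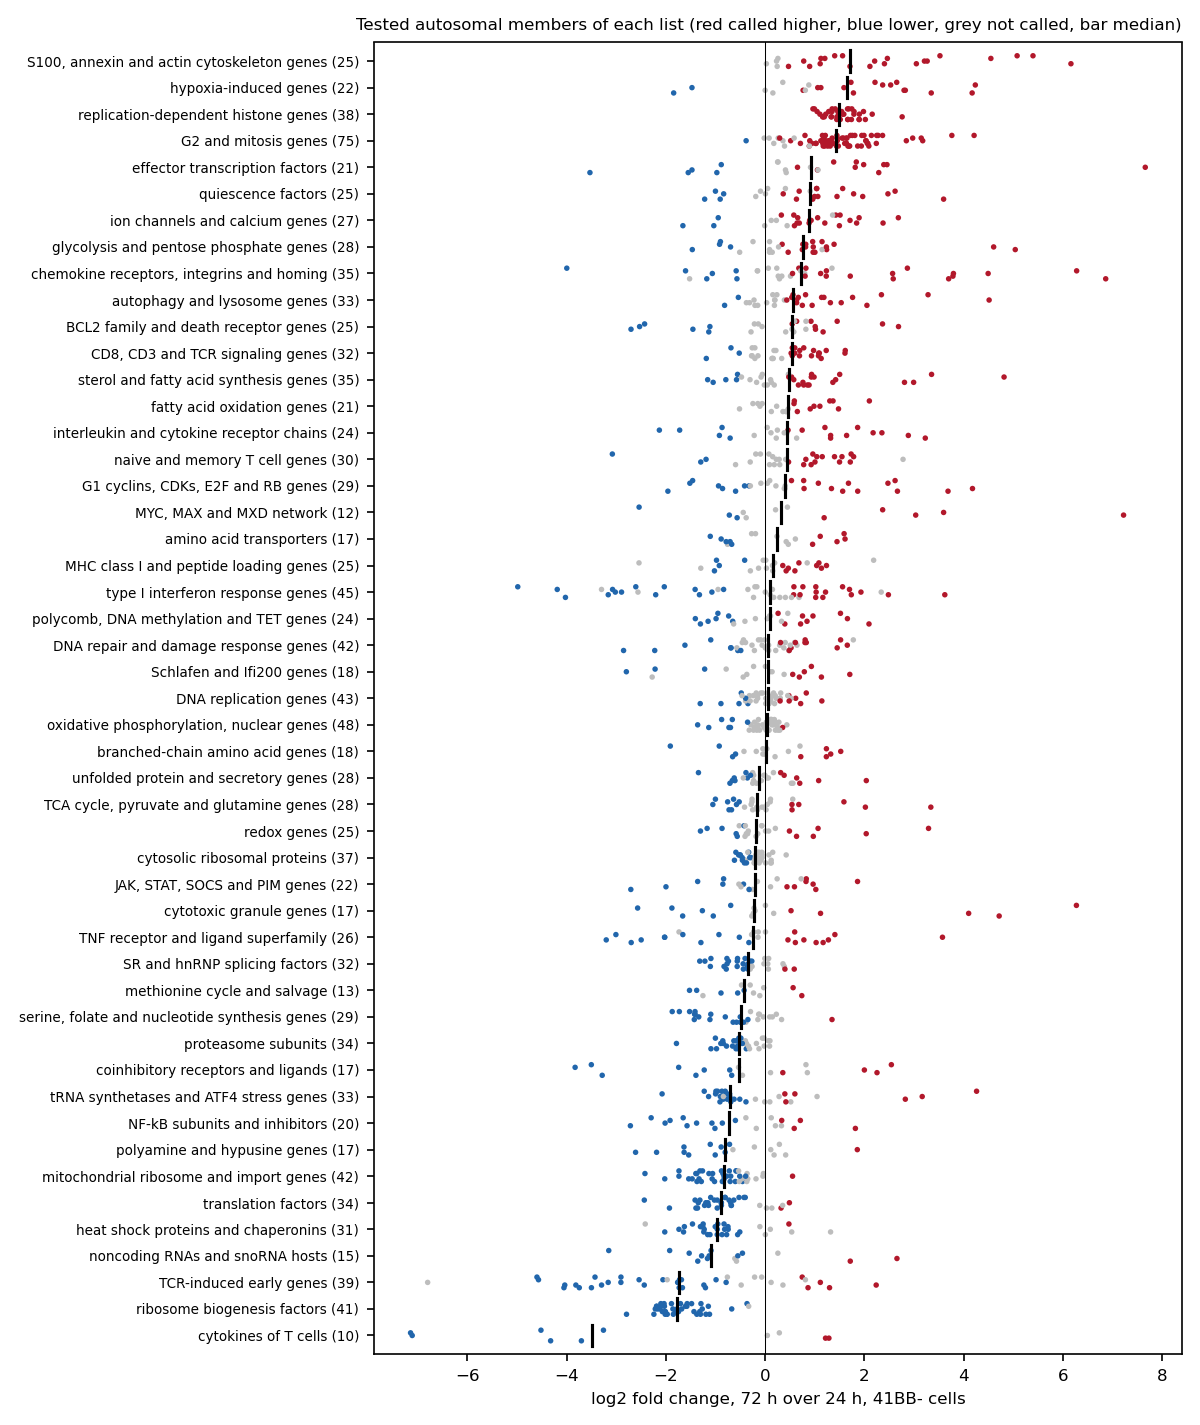
Log2 fold change of 72 h against 24 h in 41BB- cells (horizontal axis) for each tested member of the gene lists with at least 10 tested members, ordered by their medians. Points are genes, coloured by call, and the bar marks the median. Medians run from -3.48 in T cell cytokines to 1.71 in S100, annexin and actin cytoskeleton genes.

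The change between 24 and 72 h was then set against the same change in 41BB+ cells by an interaction term, the 41BB- change minus the 41BB+ change. It was positive and called in 1443 genes (11.4%), negative and called in 790 (6.23%), and called in 2233 in all (17.6%). The growth and division genes supplied many positive terms. All 38 tested histone genes had a called positive term, with a median log2 fold change of 1.5 in 41BB- cells and -0.12 in 41BB+ cells. Of 75 mitotic genes 58 had one (medians 1.44 and 0.26), and of 43 DNA replication genes 32 (0.05 and -0.78). Mki67 had log2 fold changes of 2.25 in 41BB- cells and 0.73 in 41BB+ cells, a difference of 1.52 (adjusted p = 0.00466), and Ccnb1, a mitotic cyclin, 1.64 and -0.50, a difference of 2.14 (adjusted p = 2.83e-05).

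Metabolic and biosynthetic genes followed the same pattern. Of 28 glycolysis genes 18 had a called positive term (medians 0.76 in 41BB- cells, -0.82 in 41BB+ cells), and Eno1 had 0.97 and -1.12, called in opposite directions (difference 2.09, adjusted p = 1.38e-08). Of 29 serine, folate and nucleotide synthesis genes 27 had one (-0.49 and -1.93), of 41 ribosome biogenesis factors 31 (-1.77 and -2.73), and of 34 translation factors 22 (-0.88 and -1.47), so these groups fell in 41BB- cells by less. For Myc the changes were -2.54 and -3.92, a difference of 1.39 (adjusted p = 5.28e-06). Of 22 hypoxia genes 11 had a called positive term (1.66 and 0.15). Gzmb rose by 4.72 in 41BB- cells, beside 0.83 in 41BB+ cells (difference 3.89, adjusted p = 0.000177).

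Negative terms were called in many genes of the resting cell, though not in these alone. Of 30 naive and memory genes 23 had a called negative term and 1 a positive term (medians 0.45 in 41BB- cells and 1.81 in 41BB+ cells), of 25 quiescence factors 15 (0.91 and 1.67), of 6 GIMAP genes 5 (1.02 and 2.34) and of 32 CD8, CD3 and TCR signaling genes 13 (0.54 and 0.67). Il7r had 0.23 in 41BB- cells and 3.23 in 41BB+ cells (difference -3.01, adjusted p = 6.97e-06), and S1pr1 1.15 and 3.86 (difference -2.71, adjusted p = 0.000273). Among other lists, 13 of 45 type I interferon response genes had a called negative term and 0 a positive term (medians 0.10 and 0.81). Negative terms were also called in 10 of 18 Schlafen and Ifi200 genes (1 positive) and 7 of 20 NF-kB genes (0 positive). Of 24 cytokine receptor chains 8 had a negative and 4 a positive term. None of the 6 chemokines had a called term in edgeR (0 by DESeq2 and 1 with an unadjusted p below 0.05), although their medians were -5.47 in 41BB- cells and -3.73 in 41BB+ cells. None of the 37 cytosolic ribosomal proteins had one (0 by DESeq2 and 4 with an unadjusted p below 0.05), with medians of -0.20 and -0.13, and 4 of the 39 receptor-induced early genes did. Ctla4 had 2.00 and 1.97 (difference 0.03, adjusted p = 0.97) and Nr4a3 -4.56 and -4.28 (difference -0.28, adjusted p = 0.6), which does not show that the populations act alike on these genes.

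**Figure D5:**
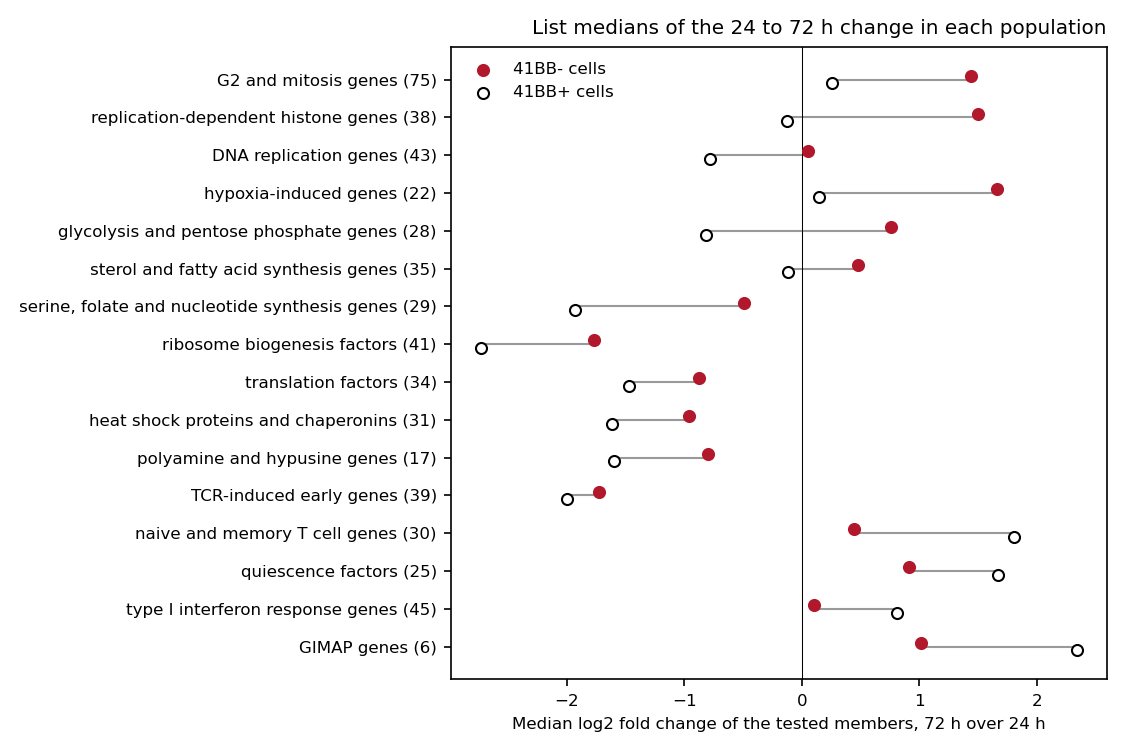
Median log2 fold change of 72 h against 24 h (horizontal axis) for 16 gene lists, with 41BB- cells as filled points and 41BB+ cells as open points. The points lie far apart for glycolysis (0.76 and -0.82), histones (1.5 and -0.12) and naive and memory genes (0.45 and 1.81).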

How the data were processed

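Counts per gene were deposited by the authors as whole numbers in a table of 18 libraries, and they are used as deposited. Per the labels' protocols, total RNA was extracted with the RNeasy Plus Micro kit and libraries were made with SMARTer Stranded Total RNA-Seq Kit v2 reagents, for which no molecular identifiers are stated. Per the submitters' processing notes, FastQC 0.11.9, Trimmomatic 0.38, HISAT2 2.2.1 and featureCounts were used with mouse build GRCm38. Unknown, as not given in the sources used here, are the annotation counted, its strand option and the rule for multi-mapped reads, so reads of near-identical copies or overlapping genes may be split.

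The libraries were grouped by their labels. All 18 were fitted in edgeR 4.0.16 (R 4.3.3) with a mean per group, TMM factors and filterByExpr by group (minimum count 10, minimum total 15). The quasi-likelihood F-test gave log2 fold changes with standard errors, and p-values were adjusted by Benjamini-Hochberg over 13150 genes (threshold 0.05). The common biological coefficient of variation was 0.18. With 3133910 to 4239795 counts in each of the 6 libraries compared, the script, tested on simulated data of 12572 genes, recovered 19.4%, 73.1% and 97% of genes set to change 1.5-fold, 2-fold and 4-fold. For the difference between populations it recovered 5.97%, 32.8% and 81.8%, so uncalled differences do not show equality. The simulation changed only 67, 67 and 66 genes by these folds, all above a minimum level at 24 h. It called 132 genes for 72 h against 24 h, beside 5214 in the data. Its rates are therefore not those of the reported comparison, and genes of low level were not covered. Counting intervals and floors of 3 counts cover counting error only. Replicates differed beyond sampling noise (chi-square per degree of freedom 4.748 to 8.058). The p-values weigh a difference between groups against the spread between replicates of these samples, estimated over all 18 libraries.

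The comparison, the 52 gene lists (1583 entries, 1425 autosomal and tested) and the markers of 10 cell types were chosen with earlier results of these data known. Genes are named by a rule: sort checks, the 15 largest called changes each way, up to 4 called members each way of each list by adjusted p, a fixed set, and the 5 largest called differences between populations each way. Exceptions are said in the text, and some genes that the rule names are not reported here. Motifs were searched in RefSeq promoters (GRCm38.p6). Alternatives were DESeq2 1.42.0, limma 3.58.1 (voom with quality weights), RLE factors, no filter, a tested minimum of 1.5-fold, gene classes left out, a fit of 6 libraries with and without a replicate block, and each library left out. Figures used matplotlib 3.10.9 and tables pandas 2.3.3.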

Additional observations from a re-analysis of the deposited data

Results flagged for a closer look

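Among the named genes, 178 had a called difference between the 72 h against 24 h change of 41BB- cells and that of 41BB+ cells, and 15 of them were called in opposite directions. The 10 largest of the differences named by rule and those in opposite directions were flagged because the difference itself passed the test. Values are the 41BB- change minus the 41BB+ change on the log2 scale.

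Larger in 41BB- cells were the histone gene Hist3h2ba (4.76), the early factor Batf3 (4.69), the nucleoside transporter Slc29a2 (5.14), the adenylate kinase Ak4 (5.0) and the Notch regulator Dtx1 (4.6). Slc29a2 and Dtx1 were called lower in both populations. Batf3 and Ak4 were called higher in 41BB- cells and lower in 41BB+ cells. The glycolytic genes Eno1 (2.09), Aldoa (1.83), Ldha (1.86) and Slc2a1 (1.96) showed the same opposition, as did the valyl-tRNA synthetase Vars (0.98), the histone chaperone subunit Chaf1a (1.27) and the splicing factor Hnrnpa3 (0.82). When 1 of the 12 libraries was left out, the called difference was lost in Dtx1 (without replicate 2 of 72 h of 41BB- cells) and kept in the other 18 genes. The 41BB- calls of Batf3, Ak4, Ldha, Slc2a1, Vars, Chaf1a and Hnrnpa3 were each lost when some library was left out.

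Smaller in 41BB- cells were Npas4 (-5.77, a fitted value that depends on the prior count, since no 72 h library of 41BB- cells held a count), the interferon-induced Ifit1bl1 (-3.94) and Ifi213 (-4.36), Tmem140 (-4.0), Prss12 (-3.86) and the naive cell gene Tdrp (-3.5). The antiproliferative gene Btg1 (-1.91) had a smaller difference. Of these 7 genes all but Npas4, which fell in both populations, fell in 41BB- cells and rose in 41BB+ cells. With a library left out, the difference ran from -4.60 to -3.07 in Ifit1bl1, -5.04 to -3.84 in Ifi213 and -5.39 to -3.45 in Prss12.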

How the results depend on the processing

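With a tested minimum change of 1.5-fold, 1525 genes were called higher at 72 h and 984 lower, 2509 in all, by construction fewer than the 5214 of the test against no change. In the other alternatives the counts of higher and lower genes stayed within 1.5 times of 2889 and 2325. They were 2744 and 2521 in a fit of the 6 libraries alone, 2807 and 2376 with RLE factors, 2778 and 2337 by DESeq2, 2962 and 2438 by limma voom with quality weights, 2638 and 2606 with autosomal genes alone, 2590 and 2611 with mitochondrial, ribosomal protein and abundant small RNA genes left out, and 2265 and 2608 with no filter on low counts, which moved the median log2 fold change of all genes by -0.11. Leaving out a library gave 2233 to 2440 higher and 2254 to 2310 lower genes, and lost 741 to 907 of the 5214 calls. No called gene reversed in any of these alternatives. The difference between populations was called in 1029 to 1319 genes as positive and in 667 to 930 as negative when 1 of the 12 libraries of the 4 groups was left out, in place of 1443 and 790. Leaving out the 41BB+ libraries was added after the data were seen.

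Whether replicate numbers pair the samples was not decided. The deviations of 72 h and 24 h libraries with the same number had correlations of -0.0023, -0.1223 and -0.1009 over 9953 genes. For libraries with different numbers the correlations ran from -0.0234 to 0.1288. Deviations from the mean of so few libraries are tied to each other, so such values cannot show that pairing is absent. Pairing between the populations was not tested in this way. With the replicate number as a block in the fit of the 6 libraries, 2522 genes were called higher and 2311 lower, and the difference between populations, with a block within each time, was positive in 1564 called genes and negative in 1066. Of the genes named, 376 were called, of which 278 stayed called in every alternative and 98 were lost in at least 1, 92 of them under the minimum of 1.5-fold.

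Signs reversed in genes that were not called: Hmgcs1 (-0.0688 with no filter, -0.027 with gene classes left out, -0.0149 with autosomal genes alone, and -0.1339 to 0.0582 when a library was left out), and, when a library was left out, Tbx21 (-0.0173 to 0.3637), Id3 (-0.0925 to 0.2532), Isg15 (-3.4668 to 0.1212) and Ccl5 (-0.0737 to 0.7403). The cause was not tested. List medians close to 0 also changed sign under some alternatives, in oxidative phosphorylation (lowest -0.1125), DNA replication (-0.062), DNA repair (-0.0837), interferon response (-0.0101), Schlafen and Ifi200 (-0.1562), polycomb (-0.0136) and branched-chain amino acid genes (-0.1022). In the fit of the 6 libraries 3 cytotoxic granule genes rose in place of 5 and 8 interferon genes fell in place of 14, and with no filter 11 sterol and fatty acid genes rose in place of 18. Depth limits genes near 3 counts. Fitted changes of genes with so few counts in a group, also where leaving out a library leaves so few, depend on the prior count, and ratios with counting intervals or bounds are given for most of those named.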
